A study of Mus musculus with 16 samples.

Results

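Tuft cells are rare chemosensory cells of the gut epithelium, and 8 genes that are widely used to recognise them in the mouse were followed here through RNA of colonocytes, the lining epithelium of the large bowel. The 8 genes, Dclk1, Trpm5, Pou2f3, Il25, Gfi1b, Avil, Sh2d6 and Rgs13, were taken by symbol from a table of 54392 gene symbols, and each was found once. The RNA came from C57BL/6 mice given, for 3 weeks, a diet of fish oil with the soluble fibre pectin (7 libraries) or of corn oil with the insoluble fibre cellulose (9 libraries). No allele, drug or sort is named for either group, and fat source and fibre source changed together, so their effects cannot be told apart. The labels number the libraries as biological replicates without saying whether each is a separate mouse, so every p-value below measures the spread between libraries.

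Tuft cells sense luminal signals through a cascade shared with taste cells, in which a G protein and a phospholipase release calcium from stores and the calcium opens the cation channel Trpm5. The transcription factor Pou2f3 is required for the lineage. In the small intestine, tuft cells are the main epithelial source of the cytokine Il25, which drives group 2 innate lymphoid cells to make Il13, and Il13 in turn increases tuft cell number. In bulk RNA of this kind, fewer tuft cells and less RNA per tuft cell cannot be told apart.

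Total counts were 16212831 to 19512755 reads in fish oil/pectin libraries and 13996288 to 19331984 in corn oil/cellulose libraries. Library names took 2 forms that the labels do not explain: 10 names began with the letters GC, 5 on each diet, and 6 did not, 2 on fish oil/pectin and 4 on corn oil/cellulose. The name form entered the model as a term. Names also ran in a lower and an upper number series, and the upper series held 0 fish oil/pectin and 5 corn oil/cellulose libraries. Among the fish oil/pectin libraries, number 7 stood apart for the distal colon gene Hoxd13, with 0.631 CPM (reads scaled to library size), against a range of 25.4 to 100.5 CPM in corn oil/cellulose libraries. Epithelial markers were abundant, with a summed level of 19700 to 34510 CPM over 10 genes in fish oil/pectin libraries and 19530 to 24130 CPM in corn oil/cellulose libraries. B cell markers were almost absent, at 0.230 to 0.607 CPM and 0.190 to 1.70 CPM in fish oil/pectin and corn oil/cellulose libraries, also summed over 10 genes.

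Most of the tuft cell genes were expressed at a low level. Per kilobase of merged exon, the mean level over 16 libraries was highest for Sh2d6, at 7.00 ± 3.26 CPM per kb (SD). Avil, Trpm5 and Rgs13 followed at 1.75 ± 0.547, 1.69 ± 0.647 and 1.48 ± 0.574 CPM per kb, and these neighbours lay within each other's spread. Pou2f3, at 0.440 ± 0.125 CPM per kb, and Dclk1, at 0.392 ± 0.106, also lay within each other's spread. Gfi1b was at 0.146 ± 0.0935 CPM per kb and Il25 at 0.0951 ± 0.0791. Against all genes that passed the count filter, the CPM per kb of Sh2d6 stood at percentile 56.1, while Avil, Trpm5 and Rgs13 stood at percentiles 28.5, 28.0 and 25.9. Pou2f3 and Dclk1 stood at percentiles 11.4 and 10.3. The value of Dclk1 depends on its merged exon length of 15296 bases, the longest of the 8, since any transcript in use that is shorter would give a higher level per kilobase.

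Promoters are shown for the 3 genes that moved most closely together across libraries in these data: Trpm5, Avil and Sh2d6. They come from RefSeq on GRCm38.p6, run from 250 bases before to 50 bases after the annotated start and are written 5′ to 3′ on the gene's strand. Capitals mark the 7-letter core ATGCAAA of the octamer motif known for POU factors, or its other strand TTTGCAT.
Trpm5 promoter, chr7:143094593-143094892, minus strand: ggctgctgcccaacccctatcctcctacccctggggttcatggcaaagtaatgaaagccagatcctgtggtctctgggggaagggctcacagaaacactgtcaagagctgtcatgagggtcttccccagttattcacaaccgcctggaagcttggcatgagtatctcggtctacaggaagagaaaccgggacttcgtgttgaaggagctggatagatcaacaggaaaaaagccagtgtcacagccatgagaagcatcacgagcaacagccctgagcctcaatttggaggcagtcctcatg
Avil promoter, chr10:127000459-127000758, plus strand: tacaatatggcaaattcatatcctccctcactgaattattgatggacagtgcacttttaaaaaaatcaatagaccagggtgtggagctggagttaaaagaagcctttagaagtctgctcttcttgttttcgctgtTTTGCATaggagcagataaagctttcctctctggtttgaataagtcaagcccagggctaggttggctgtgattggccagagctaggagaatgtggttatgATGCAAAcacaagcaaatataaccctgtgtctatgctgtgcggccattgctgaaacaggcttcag
Sh2d6 promoter, chr6:72519987-72520286, minus strand: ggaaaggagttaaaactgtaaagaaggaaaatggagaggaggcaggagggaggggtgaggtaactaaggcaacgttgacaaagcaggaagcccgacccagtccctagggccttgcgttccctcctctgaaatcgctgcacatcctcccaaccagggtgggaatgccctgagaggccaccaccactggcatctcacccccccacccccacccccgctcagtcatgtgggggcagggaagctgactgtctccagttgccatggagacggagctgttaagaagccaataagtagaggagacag
The RefSeq start of Sh2d6 lies inside the longer gene of the GENCODE annotation used below. RefSeq promoters were matched for 6 of the 8 genes, in 7 windows because Dclk1 has 2, and Pou2f3 and Il25 were not matched. The full octamer ATGCAAAT, searched with its other strand ATTTGCAT, was in 0 of the 7 windows and in 1.74% of 32851 promoters of the same length. Its 7-letter core, which is part of the octamer, was in 1 of the 7 windows, that of Avil, and in 4.63% of all promoters. The Avil window held it at 2 places, one on the gene's strand beginning 15 bases before the start and one on the opposite strand beginning 115 bases before it. GC content was 53.0% for Trpm5, 43.0% for Avil and 57.3% for Sh2d6, against a median of 52.7% over all promoters.

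None of the 6 tuft cell genes that could be tested across all genes passed the test for diet. Differences were tested with edgeR's quasi-likelihood test on the counts, with p-values adjusted by the Benjamini-Hochberg method over 14321 genes that passed a filter on low counts, and a gene was called at an adjusted p under 0.05. Of all genes tested, 3103 were higher and 2876 lower in fish oil/pectin, which is 41.7% of them. Of the 8 tuft cell genes, 6 passed the filter, with 0 called higher and 0 called lower, where the background was 21.7% higher and 20.1% lower, and 0 of the 6 had an unadjusted p under 0.05. DESeq2 also called 0, and limma voom with quality weights called 1, Trpm5, as lower. The median log2 fold change of these 6 was 0.03 and that of all genes tested was -0.004. For all 8 genes the range of the fish oil/pectin libraries overlapped that of the corn oil/cellulose libraries, and ranges did not overlap for only 3.35% of all genes tested.

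**Figure D1:**
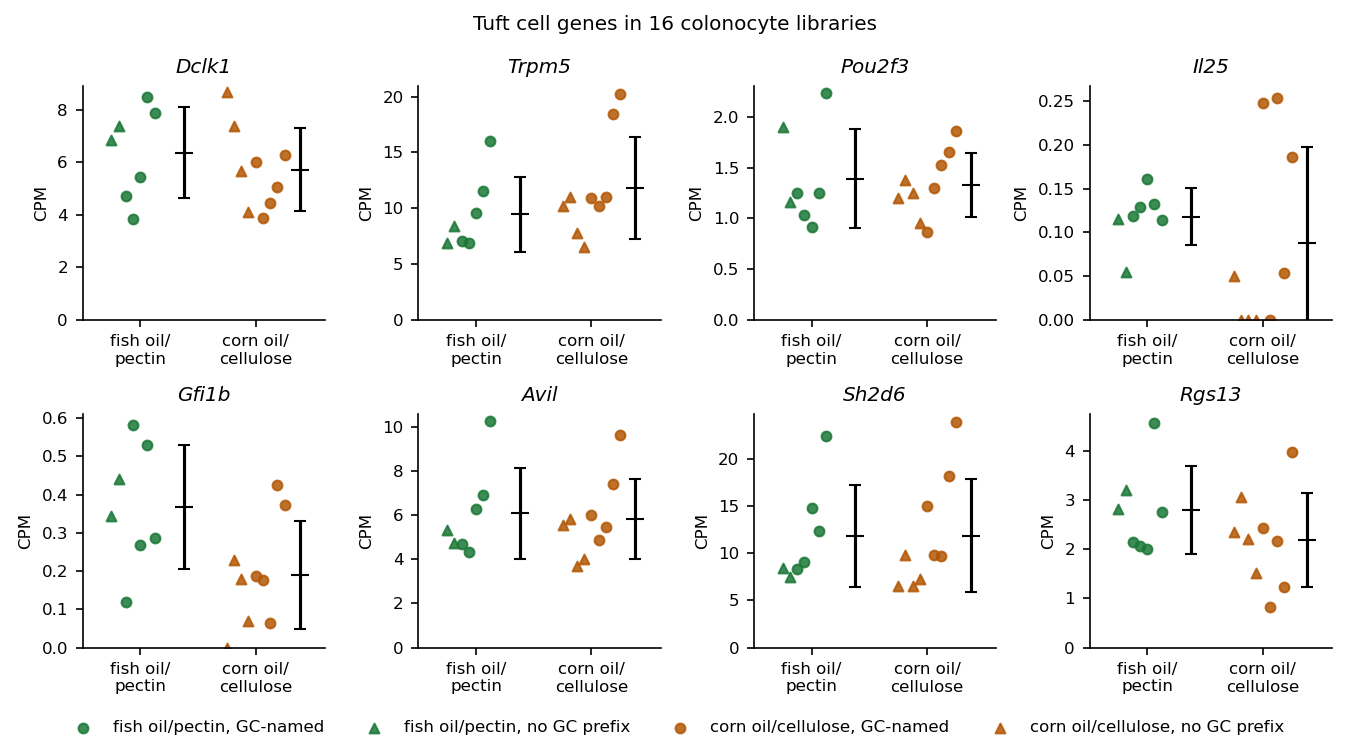
Level of each tuft cell gene in CPM (linear axis from 0), 1 point per library, with fish oil/pectin left of corn oil/cellulose. Circles are GC-named libraries, triangles are libraries without that prefix, and the bar beside each group is the mean ± SD (n = 7 and 9, with the lower arm for Il25 cut at 0). The 2 groups overlap in all 8 panels.

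Trpm5, the calcium-activated cation channel at the end of the taste-type cascade, is on GRCm38 chr7:143069153-143094642 (minus strand) and overlaps Tssc4 on the other strand. Its lowest, median and highest levels were 6.86, 8.39 and 16.1 CPM in fish oil/pectin libraries and 6.501, 10.9 and 20.3 CPM in corn oil/cellulose libraries. Of the corn oil/cellulose libraries, 2 lay above the highest fish oil/pectin library and 1 lay below the lowest. Trpm5 averaged 9.48 ± 3.37 CPM in fish oil/pectin and 11.8 ± 4.57 CPM in corn oil/cellulose (SD), a log2 fold change of -0.39 ± 0.20 (SE) with a 95% interval of -0.81 to 0.03 and an adjusted p of 0.125 by edgeR's quasi-likelihood test. This was the lowest p of the 6 genes, and its fold of 0.764 had a 95% interval of 0.572 to 1.02. Once fish oil/pectin library 7, the highest of its diet for Trpm5, was left out, the log2 fold change was -0.52 with an adjusted p of 0.0367. The outcome of the main fit thus depends on this library, and the call also changed with other settings that kept it. With colon region markers as a covariate the log2 fold change was -0.54 with an adjusted p of 0.0253 (edgeR). With the mean level of B cell, T cell and myeloid markers as a covariate it was 0.05, again not called (adjusted p = 0.947, edgeR). That last fit called only 4 genes higher and 17 lower of all tested, and the part of leukocytes in the Trpm5 value was not tested.

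Avil, which encodes the actin-binding protein advillin, is on chr10:127000709-127020994 (plus strand) and overlaps Tsfm on the other strand. It ranged from 4.34 to 10.3 CPM with a median of 5.35 in fish oil/pectin libraries, and from 3.70 to 9.63 CPM with a median of 5.55 in corn oil/cellulose libraries. The means were 6.09 ± 2.07 and 5.83 ± 1.80 CPM in fish oil/pectin and corn oil/cellulose, and the log2 fold change was 0.00 ± 0.18 (95% interval -0.38 to 0.38, adjusted p = 0.992, edgeR). Sh2d6, on chr6:72513641-72521707 (minus strand), encodes a protein with an SH2 domain, a module that binds phosphorylated tyrosine. Its levels were 7.45, 9.06 and 22.4 CPM (lowest, median, highest) in fish oil/pectin libraries and 6.55, 9.78 and 23.9 CPM in corn oil/cellulose libraries. Both diets held libraries at either end of the range. The log2 fold change of Sh2d6 was -0.10 ± 0.22 (95% interval -0.56 to 0.36, adjusted p = 0.731, edgeR).

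Dclk1, a doublecortin-like kinase and the marker most used for tuft cells in the mouse gut, is on chr3:55242364-55539068 (plus strand), where 6 other annotated genes overlap it. It had 3.82, 6.84 and 8.46 CPM (lowest, median, highest) in fish oil/pectin libraries and 3.86, 5.67 and 8.66 CPM in corn oil/cellulose libraries, nearly the same range on both diets. The log2 fold change was 0.20 ± 0.18 (95% interval -0.17 to 0.58, adjusted p = 0.382, edgeR). Dclk1 is also expressed in neurons, and markers of neurons and glia summed to 6.95 to 9.00 CPM over 10 genes in fish oil/pectin libraries and to 10.03 to 14.1 CPM in corn oil/cellulose libraries, groups that do not overlap, with 4 of the 5 that passed the filter called lower against a background of 20.1%. Their part in the Dclk1 value was not tested. Rgs13, a regulator of G protein signalling that is also known in germinal centre B cells and mast cells, is on chr1:144138654-144177372 (minus strand). It ranged from 1.99 to 4.56 CPM with a median of 2.76 in fish oil/pectin libraries, against 0.831 to 3.98 CPM with a median of 2.21 in corn oil/cellulose libraries, 3 of which lay below the lowest fish oil/pectin library. The log2 fold change of 0.37 ± 0.26 had a 95% interval of -0.19 to 0.92 and an adjusted p of 0.277 by edgeR. Mast cell and basophil markers summed to 44.8 to 92.5 CPM over 10 genes in fish oil/pectin libraries and 77.9 to 127.5 CPM in corn oil/cellulose libraries. Most of these sums came from 1 gene, Kit, at 58.83 ± 19.55 CPM in fish oil/pectin and 84.74 ± 19.85 CPM in corn oil/cellulose (SD). Only 5 of the 10 passed the filter, and 4 of these were called lower (background 20.1%). Rgs13 itself was not called, and the part of mast cells and basophils in its value was not tested.

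**Figure D2:**
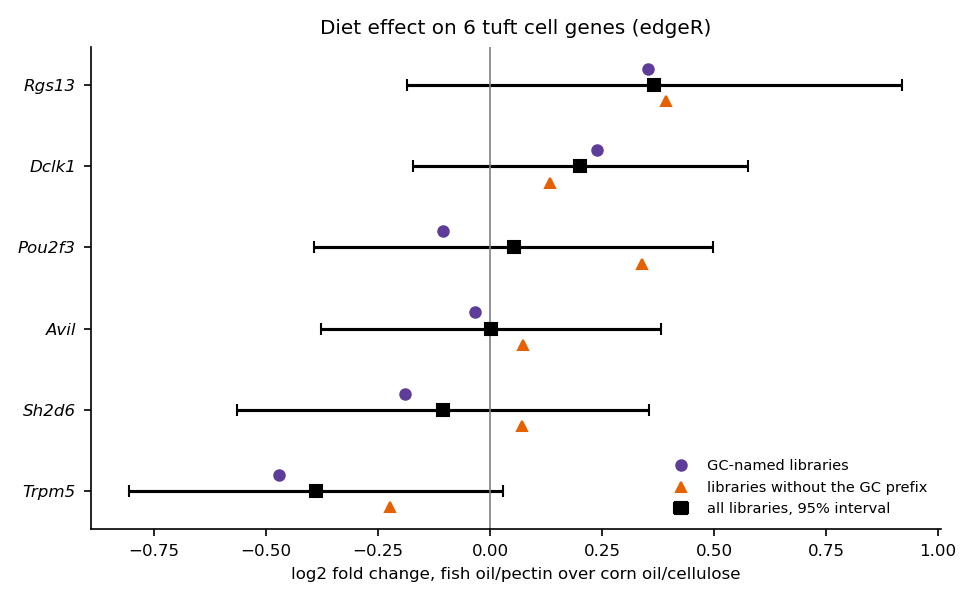
Log2 fold change of fish oil/pectin over corn oil/cellulose (x axis) for the 6 genes that passed the count filter (rows). Squares with bars are the estimate and 95% interval from all 16 libraries, circles the estimate in GC-named libraries and triangles that in libraries without the prefix. All 6 intervals include 0, with Trpm5 lowest at -0.39 and Rgs13 highest at 0.37.

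The regulators and the cytokine had few reads. Pou2f3, the POU-domain factor on chr9:43123939-43210369 (minus strand), had 14 to 39 reads in any library. It ranged from 0.916 to 2.24 CPM in fish oil/pectin libraries (median 1.25) and from 0.869 to 1.86 CPM in corn oil/cellulose libraries (median 1.31), with a log2 fold change of 0.05 ± 0.21 (95% interval -0.39 to 0.50, adjusted p = 0.863, edgeR). Gfi1b, a zinc-finger repressor best known in erythroid cells and megakaryocytes, is on chr2:28609450-28621982 (minus strand) and had 0 to 9 reads a library, 43 in all in the fish oil/pectin libraries and 29 in all in the corn oil/cellulose libraries. Its levels were 0.119 to 0.583 CPM (median 0.345) in fish oil/pectin libraries and 0 to 0.426 CPM (median 0.179) in corn oil/cellulose libraries. Gfi1b did not pass the filter, and an exact two-sided permutation test of log2(CPM + 0.5) over the 3780 ways of assigning diets within name forms gave a difference of 0.34 and p = 0.0540, where the smallest p possible was 0.000529. Without fish oil/pectin library 3, corn oil/cellulose library 8 or corn oil/cellulose library 9 the same exact permutation test gave p = 0.0153, 0.0243 and 0.0360. Those runs were among the 4 of 26 alternatives in which the outcome changed, and in the other 22 it stayed the same. Markers of megakaryocytes and erythroid cells summed to 2.65 to 10.2 CPM over 10 genes in fish oil/pectin libraries and to 1.84 to 6.34 CPM in corn oil/cellulose libraries, and their part in the Gfi1b value was not tested.

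Il25, on chr14:54932695-54935837 (plus strand), was close to the detection limit. It had 1 to 3 reads in each of the 7 fish oil/pectin libraries, 14 in all, and 0 to 4 reads in the 9 corn oil/cellulose libraries, 13 in all. Of the corn oil/cellulose libraries, 4 had 0 reads, which at their depth allows a level of up to 0.173 to 0.205 CPM (3 counts per library, counting error only). The highest Il25 levels, 0.248 and 0.254 CPM, were also in corn oil/cellulose libraries. The exact two-sided permutation test within name forms gave a difference of 0.09 in log2(CPM + 0.5) and p = 0.529, so no difference was detectable at this depth.

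No difference in the diet estimates between the name forms was detected by a test of the difference itself. Only 2 fish oil/pectin libraries lacked the prefix, and the SE of the log2 difference was 0.38 to 0.57, so sizeable differences could be missed. The interaction term passed for 0 of the 6 genes, with unadjusted p of 0.325 or more and adjusted p from 0.577 for Pou2f3 to 0.977 for Rgs13 by edgeR, while it passed for 8.41% of all genes tested. Trpm5 had a log2 fold change of -0.47 among GC-named libraries and -0.22 among the others, and Rgs13 had 0.35 and 0.39. Pou2f3 had -0.11 among GC-named libraries and 0.34 among the others, a difference of -0.45 ± 0.44 (SE).

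Libraries of the 2 name forms differed in some tuft cell genes, with diet held in the model. This comparison was added after the values had been seen, and it called 40.5% of all genes tested. Sh2d6 was 1.89-fold higher in GC-named libraries (log2 0.92 ± 0.23, adjusted p = 0.00493, edgeR). Its means were 13.4 ± 5.68 CPM in GC-named against 7.92 ± 0.671 CPM in other fish oil/pectin libraries, and 15.3 ± 5.98 CPM in GC-named against 7.54 ± 1.53 CPM in other corn oil/cellulose libraries (SD). Trpm5 was 1.49-fold higher in GC-named libraries (log2 0.57 ± 0.21, adjusted p = 0.0344). Avil did not pass at log2 0.44 ± 0.19 (adjusted p = 0.0732), and neither did Dclk1 at -0.30 ± 0.18 (adjusted p = 0.201), Pou2f3 at 0.08 ± 0.22 (adjusted p = 0.787) or Rgs13 at -0.14 ± 0.27 (adjusted p = 0.71), all by edgeR. What the name form stands for was not tested.

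Trpm5, Sh2d6 and Avil were high in the same libraries, and Dclk1 and Rgs13 followed them less closely. The summed level of the 8 genes was 27.9 to 62.0 CPM (median 32.8) in fish oil/pectin libraries and 24.4 to 66.4 CPM (median 34.6) in corn oil/cellulose libraries. The highest sums were 62.0 CPM in fish oil/pectin library 7, and 66.4 and 52.4 CPM in corn oil/cellulose libraries 9 and 8. Those 3 libraries were also the highest of all 16 for Trpm5 (16.1, 20.3 and 18.5 CPM), for Sh2d6 (22.4, 23.9 and 18.1 CPM) and for Avil (10.3, 9.63 and 7.41 CPM). They were not the highest for every gene: Dclk1 was highest, at 8.66 CPM, in corn oil/cellulose library 1, which had the lowest Sh2d6 of all, at 6.55 CPM, and corn oil/cellulose library 8 had only 1.23 CPM of Rgs13. They were the highest as well in the summed level of 10 markers of enteroendocrine cells, the hormone-secreting cells of the epithelium, at 1506, 1322 and 1481 CPM against 517 to 1132 CPM in the other 13. T cell markers were at 27.2, 48.2 and 56.2 CPM in the same 3 libraries, in an overall range of 8.54 to 56.2 CPM. Corn oil/cellulose libraries 8 and 9 were the highest of all for these markers. Fish oil/pectin library 7 was the highest of its diet, followed by library 4 at 17.6 CPM. It lay below corn oil/cellulose libraries 5 and 6, at 40.65 and 37.79 CPM. The part of other cell types in this ordering was not tested.

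After the mean of each diet and name form was removed, the 15 pairs among the 6 genes had Pearson r of log2 CPM from 0.246 to 0.935 over 16 libraries, with a median of 0.648, and 12 pairs were above 0.5. With no means removed the median was 0.44 and 6 pairs were above 0.5. These correlations are descriptions, since every pair shares its libraries and their depth. Trpm5 and Avil had r = 0.935, Avil and Sh2d6 0.899, Trpm5 and Sh2d6 0.841, and Dclk1 and Avil 0.794. Rgs13 followed Dclk1 most closely, at 0.717, and Pou2f3 and Rgs13 were the weakest pair, at 0.246. Against the mean of the other 5 genes, r was 0.950 for Avil, 0.914 for Trpm5, 0.785 for Sh2d6, 0.779 for Dclk1, 0.565 for Rgs13 and 0.556 for Pou2f3. Without fish oil/pectin library 7 and corn oil/cellulose library 9, the 2 farthest from the median, Avil had 0.903, Trpm5 0.848, Dclk1 0.789, Sh2d6 0.584 and Rgs13 0.508, while Pou2f3 had 0.227, so that its value rests on those libraries. With no group mean removed, Dclk1 and Sh2d6 had r = 0.14, against 0.589 with the means removed.

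**Figure D3:**
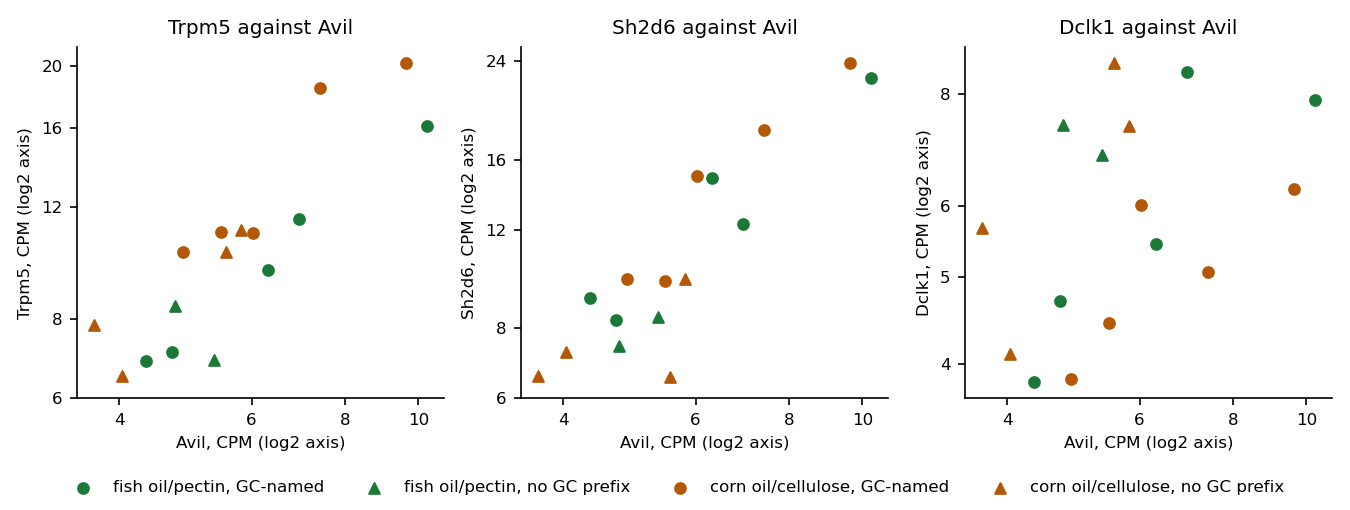
Levels of Trpm5, Sh2d6 and Dclk1 (y axes, CPM, log2 axis) against Avil (x axis, CPM, log2 axis), 1 point per library, coloured by diet and shaped by name form. Trpm5 and Sh2d6 climb with Avil, and the library with 10.3 CPM of Avil is fish oil/pectin library 7, while Dclk1 follows Avil more loosely (r = 0.464 before group means are removed).

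The ratio of Trpm5 to Avil overlapped less between the diets than either gene did. This ratio was singled out after the values had been seen, so it is given without a test. It was 1.29 to 1.77 (median 1.56) in fish oil/pectin libraries and 1.61 to 2.50 (median 2.01) in corn oil/cellulose libraries, and 8 of the 9 corn oil/cellulose libraries lay above the highest fish oil/pectin library. Among GC-named libraries it was 1.51 to 1.66 in fish oil/pectin and 1.81 to 2.50 in corn oil/cellulose. How often ratios of other gene pairs separate the diets as much, in all libraries or in these, was not counted. Among the others, the fish oil/pectin libraries had 1.29 and 1.77, and the corn oil/cellulose libraries 1.61 to 2.11. The ratios of the other genes to Avil overlapped widely, with medians for Sh2d6 of 1.77 in fish oil/pectin and 1.80 in corn oil/cellulose and for Dclk1 of 1.00 on both diets.

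**Figure D4:**
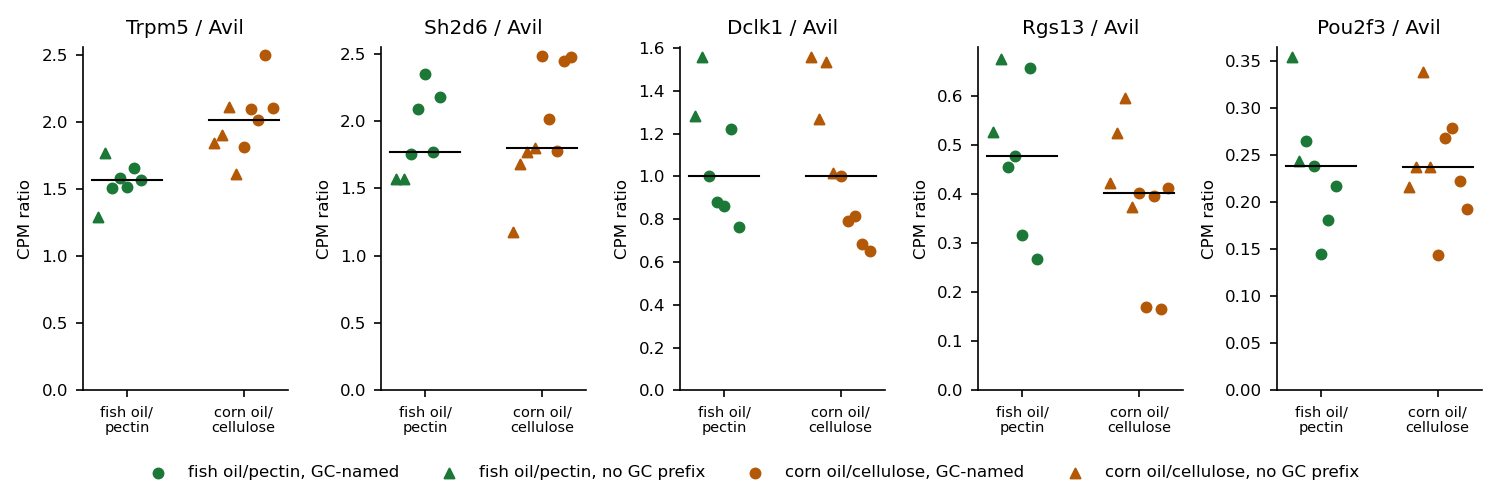
Ratio of the CPM of 5 tuft cell genes to that of Avil (y axes from 0), 1 point per library, fish oil/pectin left of corn oil/cellulose, with circles for GC-named libraries and triangles for the others. The line is the median, which for Trpm5 is 1.56 in fish oil/pectin and 2.01 in corn oil/cellulose, and the other 4 panels overlap widely.

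Likeness to the tuft cell genes was also taken over all other genes. It was the Pearson r, over 16 libraries and with group means removed, between a gene's log2 CPM and the mean of the 6 standardised tuft cell genes. Of 14315 other genes, the 12 most alike included Utp3 at r = 0.912, Suv39h1 at 0.910, Nap1l1 at 0.904, Stk11 at 0.896 and Sh2d7 at 0.885, followed by Haus1, Ppig, Hap1, Ndufaf1, Dynlt1f and Matk down to 0.862. Of these 12, 7 were called for diet, where 41.7% of all genes were, and Sh2d7, Hap1, Matk and Dynlt1f were among the 5 that were not. With no group means removed, 3 of the 12, Sh2d7 and Hap1 among them, were still among the top 12, joined by Alox5 and Nrgn of the wider lists. An r over 0.8 was reached by 76 genes and one under -0.8 by 39, so single places in this order carry little weight.

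Beyond the 8 genes, 46 further genes linked to tuft cells were looked up in 4 lists. Of these, 37 passed the filter, 2 were higher and 8 lower in fish oil/pectin, which is 27.0% against 41.7% of all genes, and their median log2 fold change was -0.13. Many of them are also expressed by other cells of the colon. Of the 37, 14 had a likeness r over 0.5 and 9 were below 0. Nrgn (0.858) and the 5-lipoxygenase gene Alox5 (0.837) were among those over 0.8, while Itpr3 had -0.667 and Lrmp -0.587.

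The taste-type cascade held 3 of the 8 lower calls. Of its 11 genes 6 passed the filter, 0 were higher and 3 were lower, with a median of -0.19, against 21.7% higher and 20.1% lower of all genes tested, a background that holds for each list below. Itpr2, a receptor that releases calcium from stores, fell, with 19.9 to 31.0 CPM (median 28.1) in fish oil/pectin libraries and 34.6 to 43.9 CPM (median 39.0) in corn oil/cellulose libraries, groups that do not overlap, as for 3.35% of all genes (log2 fold change -0.51 ± 0.08, adjusted p = 0.0005, edgeR). Its call was lost in 3 of 35 alternatives, and its likeness to the tuft cell genes was -0.333. Fits with leukocyte or with epithelial markers as a covariate called only 21 and 0 of all genes tested. Calls lost in those fits, here and in the lists below, therefore carry little weight. Plcb2, the phospholipase of the cascade, fell to 1.51 to 2.91 CPM (median 2.43) in fish oil/pectin libraries, against 1.37 to 7.25 CPM (median 3.54) in corn oil/cellulose libraries, at -0.72 ± 0.22 with an adjusted p of 0.0162. The log2 fold change of Plcb2 was -1.05 in GC-named libraries and -0.10 in the others, and its call was lost in 6 of 35 alternatives. Plcb2 is also expressed by leukocytes. T cell markers moved with it, with 6 of the 7 that passed the filter called lower (background 20.1%) and a median log2 fold change of -1.22. With the leukocyte covariate the log2 fold change of Plcb2 was 0.03, in a fit that called only 4 genes higher and 17 lower of all tested, so the part of leukocytes in the Plcb2 value cannot be told apart from that of diet. Itpr3, the other store receptor, averaged 251 ± 20.8 CPM in fish oil/pectin and 283 ± 20.2 CPM in corn oil/cellulose (log2 fold change -0.16 ± 0.06, adjusted p = 0.0390), and lost its call in 19 of 35 alternatives. Ffar3, a receptor for short-chain fatty acids, did not pass, at 0.46 ± 0.32 (adjusted p = 0.258).

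**Figure D5:**
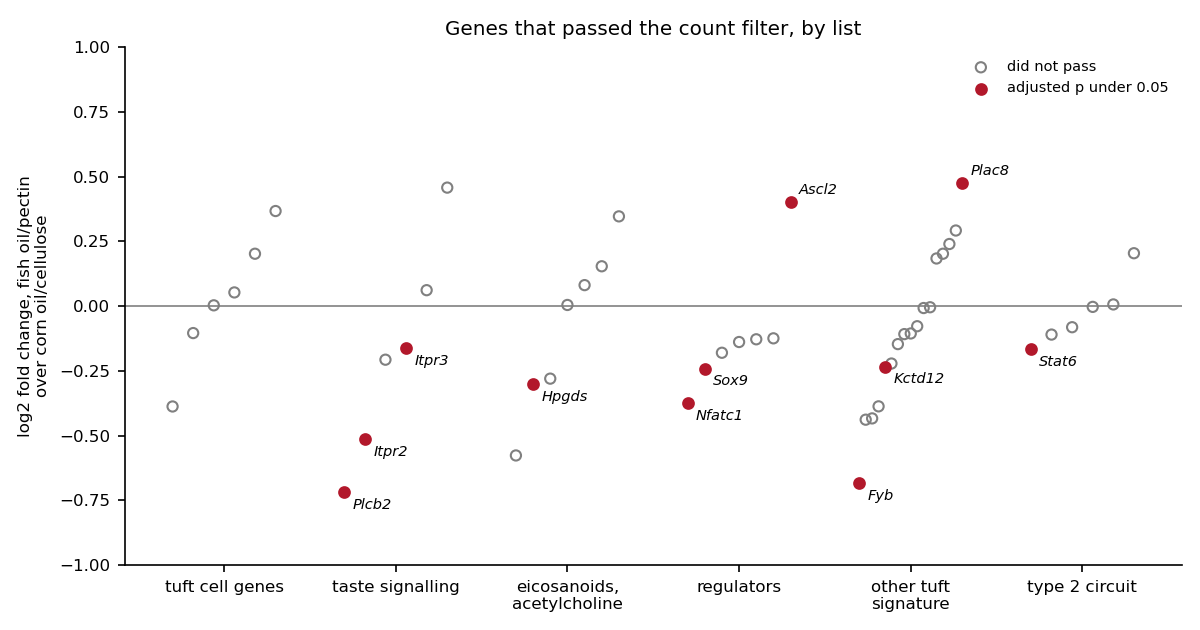
Log2 fold change of fish oil/pectin over corn oil/cellulose (y axis) for the genes of each list that passed the count filter, 1 point per gene. Filled points are genes with an adjusted p under 0.05 (edgeR), named beside the point, and open points did not pass. No point is filled among the 6 tuft cell genes, and 2 of the filled points, Ascl2 and Plac8, lie above 0.

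Of the 7 genes for eicosanoids and acetylcholine, with which tuft cells signal, all passed the filter, 0 were higher and 1 was lower, with a median of 0.00. Hpgds, the haematopoietic prostaglandin D synthase, averaged 4.86 ± 0.753 CPM in fish oil/pectin and 5.97 ± 0.823 CPM in corn oil/cellulose (log2 fold change -0.30 ± 0.12, adjusted p = 0.0445, edgeR), a call lost in 21 of 35 alternatives. Chat, which makes acetylcholine, had -0.58 ± 0.28 with an adjusted p of 0.1004. The leukotriene synthase gene Ltc4s had 0.35 ± 0.25 (adjusted p = 0.283) and the cyclooxygenase gene Ptgs1 -0.28 ± 0.23 (adjusted p = 0.346).

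Among 9 transcription factors with a link to tuft cells 7 passed the filter, 1 was higher and 2 were lower, with a median of -0.14. Nfatc1 averaged 12.2 ± 2.16 CPM in fish oil/pectin and 15.9 ± 1.17 CPM in corn oil/cellulose (log2 fold change -0.37 ± 0.09, adjusted p = 0.00451, edgeR), and lost its call in 3 of 35 alternatives, at -0.074 in libraries without the GC prefix, -0.17 with the leukocyte covariate and -0.25 with the epithelium covariate. Sox9, also a factor of crypt base cells, averaged 79.7 ± 6.00 CPM in fish oil/pectin and 93.8 ± 9.43 CPM in corn oil/cellulose (-0.24 ± 0.07, adjusted p = 0.00903), a call lost in 5 of 35 alternatives. Ascl2, best known as a factor of intestinal stem cells, rose to 17.0 ± 4.04 CPM in fish oil/pectin, against 12.7 ± 2.01 CPM in corn oil/cellulose (0.40 ± 0.14, adjusted p = 0.0258), and lost that call in 13 of 35 alternatives. Zfp710 did not pass, at -0.13 ± 0.07 (adjusted p = 0.177).

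A list of 20 other signature genes had 19 in the table and 17 past the filter, with 1 higher, 2 lower and a median of -0.11. Plac8 averaged 774 ± 228 CPM in fish oil/pectin and 521 ± 85.5 CPM in corn oil/cellulose (log2 fold change 0.47 ± 0.12, adjusted p = 0.00453, edgeR). Plac8 lost its call in 3 of 35 alternatives, at 0.12 with the epithelium covariate, 0.21 with the leukocyte covariate and 0.22 in libraries without the GC prefix. Those covariate fits called 0 and 21 of all genes tested, so a call lost there says little about Plac8. Of the 10 epithelial markers 7 were higher and 0 lower, against 21.7% and 20.1% of all genes tested. Their part in the Plac8 value was not tested. Fyb, an adaptor protein that T cells also express, averaged 1.85 ± 0.417 CPM in fish oil/pectin and 2.95 ± 0.815 CPM in corn oil/cellulose (-0.68 ± 0.18, adjusted p = 0.00713), a call lost in 5 of 35 alternatives. Kctd12 averaged 28.7 ± 2.87 CPM in fish oil/pectin and 33.6 ± 2.72 CPM in corn oil/cellulose (-0.23 ± 0.07, adjusted p = 0.0145), a call lost in 7 of 35. Nebl did not pass, at -0.43 ± 0.20 (adjusted p = 0.0897).

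In the circuit that Il25 feeds, the cytokines Il4, Il5, Il9 and Il13 were at or near 0 reads, while the receptor genes Il17ra, Il13ra1 and Il4ra and Stat6 were expressed. Il5, Il9 and the decoy receptor gene Il13ra2 had 0 reads in all 16 libraries, Il13 had 1 read and Il4 had 2 reads in all, each in a corn oil/cellulose library. Of the 12 genes of the circuit 6 passed the filter, 0 were higher and 1 was lower, with a median of -0.04. Stat6, which carries the signal of Il4 and Il13 to the nucleus, averaged 114 ± 7.74 CPM in fish oil/pectin and 128 ± 4.71 CPM in corn oil/cellulose (log2 fold change -0.17 ± 0.05, adjusted p = 0.0122, edgeR), and lost its call in 7 of 35 alternatives. The receptor genes Il17ra, Il13ra1 and Il4ra did not pass, at -0.11 ± 0.07, -0.08 ± 0.06 and 0.20 ± 0.16.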

How the data were processed

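RNA from colonocytes was sequenced in 16 libraries made from 200 ng of total RNA with a stranded mRNA kit, per the labels' protocols. The aligner STAR 2.6.0a, the counting tool HTSeq 0.11.1 and the build GRCm38 are listed, with no settings, per the submitters' processing notes. Neither the strand setting nor the annotation release is stated in the sources read here. If counting ignored strand, reads of Trpm5 and Avil cannot be told from those of genes overlapping them. Some of the genes overlapping Dclk1 lie on its own strand, so counting by strand would not separate all of them from Dclk1. The deposited table holds raw counts per gene symbol, and 0 columns were left unused. Chi-square tests of the counts, run on 57 pairs of libraries and not on every pair, found no library deposited more than once among those pairs.

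The members and lists were chosen with earlier results of these data known. Genes were filtered with filterByExpr, scaled with TMM and tested with the robust quasi-likelihood fit of edgeR 4.0.16 in R 4.3.3, with name form and diet as terms; the script was tested on simulated counts. Tested genes held 99.9% of counts. CPM divides by the total times the TMM factor. Coordinates and exon lengths are from GENCODE M21, which matched 98.8% of symbols. Genes named outside the 8 are the lowest p of each list, up to 4, and those of the 12 of highest likeness that are reported here; Hoxd13, Nrgn, Alox5, Lrmp and the type 2 cytokines were singled out after their values were seen. DESeq2 1.42.0 and limma 3.58.1 served as alternatives. Confidence intervals are at 95%.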

Additional observations from a re-analysis of the deposited data

Results flagged for a closer look

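Of the 8 genes and the genes of the wider lists that passed the filter, Fyb and Espn had a diet effect that differed between the name forms. Such a difference was called for 8.41% of all genes tested, so these 2 calls do not set the lists apart. The log2 fold change of Fyb in fish oil/pectin over corn oil/cellulose was -1.06 in GC-named libraries and -0.02 in the others, a difference of -1.04 (adjusted p = 0.0450 for the interaction, edgeR). That of Espn, an actin-bundling protein gene singled out after its values were seen, was 0.49 in GC-named libraries and -0.27 in the others, a difference of 0.756 (adjusted p = 0.0398). T cell markers had a median log2 fold change of -1.55 in GC-named libraries and -0.22 in the others, and their part in the Fyb difference was not tested by that interaction. With the leukocyte covariate the log2 fold change of Fyb over all libraries was -0.10. That fit called only 21 of all genes tested, so the part of leukocytes in the Fyb value cannot be told apart from that of diet. No library of any tuft cell gene lay far from the rest of its diet group by Dixon's test, which was run on 16 groups.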

How the results depend on the processing

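Over 35 alternatives, members called higher stayed at 0, and members called lower were 0 in 31 and 1, Trpm5, in 4: limma voom with quality weights (log2 fold change -0.55, adjusted p = 0.0330), colon region markers as a covariate (-0.54, adjusted p = 0.0253), without fish oil/pectin library 7 (-0.52, adjusted p = 0.0367) and without fish oil/pectin libraries 6 and 7 (-0.60, adjusted p = 0.0349, chosen after seeing the data). Trpm5 turned to 0.046 with the leukocyte covariate and was -0.090 with the replicate block. Dclk1 was 0.50 (adjusted p = 0.0555) with the exon length trend removed. Leaving out 1 library at a time moved Trpm5 between -0.52 and -0.29, Dclk1 between 0.11 and 0.28, Rgs13 between 0.21 and 0.57, Sh2d6 between -0.27 and 0.033, Avil between -0.14 and 0.10, and Pou2f3 between -0.10 and 0.13. It left members lower at 0 to 1. Rgs13 kept its direction under all 35.

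The signs of the smallest estimates were not stable, and the cause was not tested. Dclk1 was -0.021 without fish oil/pectin libraries 6 and 7, where Pou2f3 was -0.10 and Avil -0.20. Among GC-named libraries alone Pou2f3 was -0.13, Avil -0.061 and Il25 -0.019. With total counts and no scaling factor Pou2f3 was -0.024 and Avil -0.079. Avil was -0.012 with RLE and with upper quartile scaling, -0.014 with a filter of 1 CPM in 7 libraries and -0.011 with DESeq2. With voom Pou2f3 was -0.13 and Avil -0.14, with the epithelium covariate -0.10 and -0.22, with the colon region covariate -0.14 and -0.16, and with the exon length trend removed -0.0086 and -0.040. Sh2d6 was 0.082 in libraries without the GC prefix, 0.051 in the lower number series and 0.26 with the leukocyte covariate. Of the genes named from other lists, Plcb2 was 0.032 and Nebl 0.15 with the leukocyte covariate, Itpr3 0.012 and Il17ra 0.060 with the length trend removed, Ltc4s -0.45 in libraries without the prefix, and Ffar3 -0.09, Ltc4s -0.39 and Il4ra -0.13 with the epithelium covariate.

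For the genes with few reads, Gfi1b with no name form in the exact permutation had a difference of 0.34 and p = 0.0364, and leaving out 1 library moved it between 0.28 and 0.41, and Il25 between 0.07 and 0.14. Leaving out 1 library moved the difference between name forms from -0.076 to 0.26 for Dclk1, -0.47 to -0.09 for Trpm5, -0.76 to -0.05 for Pou2f3, -0.33 to 0.060 for Avil, -0.53 to -0.05 for Sh2d6 and -0.30 to 0.32 for Rgs13.

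Counts over all genes, higher and then lower, were 614 and 286 in libraries without the prefix, 1194 and 1056 in the lower series, 4 and 17 with the leukocyte covariate, 0 and 0 with the epithelium covariate (edgeR, 1985 genes at an unadjusted p under 0.05, no other tool run) and 1981 and 1608 at a threshold of 0.01, with 1732 lower once the length trend was removed. With total counts 37.3% of calls were higher and with the length trend removed 63.5%, against 51.9%. Replicate numbers did not pair the libraries, since residuals of same-numbered libraries correlated at -0.17 to 0.34. With the replicate block, 1881 genes were higher and 1573 lower, and Sh2d6 was 0.29. Without group means removed, 3 of the 12 most alike genes were shared. Depth limits what can be seen of Gfi1b and Il25, at 0 to 9 reads a library.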
